A study of Mus musculus with 27 samples.

Results

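The second day of conversion in cells without TET enzymes is described here, from 3 libraries of TET_KO epiblast-like cells on D2 and 3 on D1, which are 6 of the 27 libraries of the series. TET_KO is a mouse embryonic stem cell line in which Tet1, Tet2 and Tet3 are all knocked out, given in the labels as TET1/2/3_KO. TET_WT is the parental line it was made from, and DNMT_WT is the wild-type line behind a Dnmt knockout that is not analysed here; both served for comparison, with 3 libraries a day each. All 3 lines started as stem cells in 2i/Lif (D0, labelled ESC) and were taken towards epiblast-like cells, labelled EpiLC, on D1 and D2. The sources used here do not say whether TET_KO is 1 clone or whether replicates were separate cultures, so a p-value here reflects how these libraries scatter, and that scatter may be technical. Whole-genome bisulfite sequencing gave a percent methylation for windows named as holding 100 CpGs. The libraries were chosen by their labels, and the windows are the 422141 autosomal ones with a value in all 27 libraries, 98.5% of the 428481 autosomal windows. Their median length was 4949 bp, and since each is named for the same number of CpGs, a short window is CpG-dense and a long one CpG-poor. The table holds no read counts, so the depth behind a value is unknown.

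In naive stem cells held in 2i and LIF, DNA methylation is low across the genome, and it is laid down again by the de novo enzymes DNMT3A and DNMT3B as cells approach the state of the early post-implantation epiblast. The TET enzymes oxidise 5-methylcytosine to 5-hydroxymethylcytosine and further products, which leads to loss of the mark, and they are known for acting at enhancers and promoters of pluripotent cells. CpG-dense promoters, the CpG islands, usually stay unmethylated throughout. Bisulfite conversion reads 5-methylcytosine and 5-hydroxymethylcytosine alike. Methylation gives no check of the cell type from expressed markers or of the Tet deletions, which was not made here.

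Methylation rose across the genome of TET_KO cells on the second day. The mean over all windows was 71.1, 71.9 and 69.6% in TET_KO cells on D2, against 59.0, 59.0 and 60.04% on D1, and 51.4, 51.0 and 53.1% on D0. The D2 libraries were all above the D1 libraries. D2 averaged 70.8% ± 1.17 and D1 59.3% ± 0.613 (SD, n = 3 each), a step of 11.5 ± 0.761 points (SE). An exact two-sided permutation test, 3 against 3, gave p = 0.1, the smallest it allows. As a net loss of the mean unmethylated percent, 28.3% of that left on D1 was gone by D2, with 25.2 to 30.8% in single D2 libraries. No CpG was followed between days, and such a net loss is called the share of unmethylated CpGs lost below. The first day had brought 7.51 ± 0.726 points and a net loss of 15.6%, so the second step was larger by 3.99 ± 1.17 points. Mitochondrial windows, which carry little methylation, stood at 0.187 to 0.210% on D2 and 0.161 to 0.207% on D1.

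**Figure D1:**
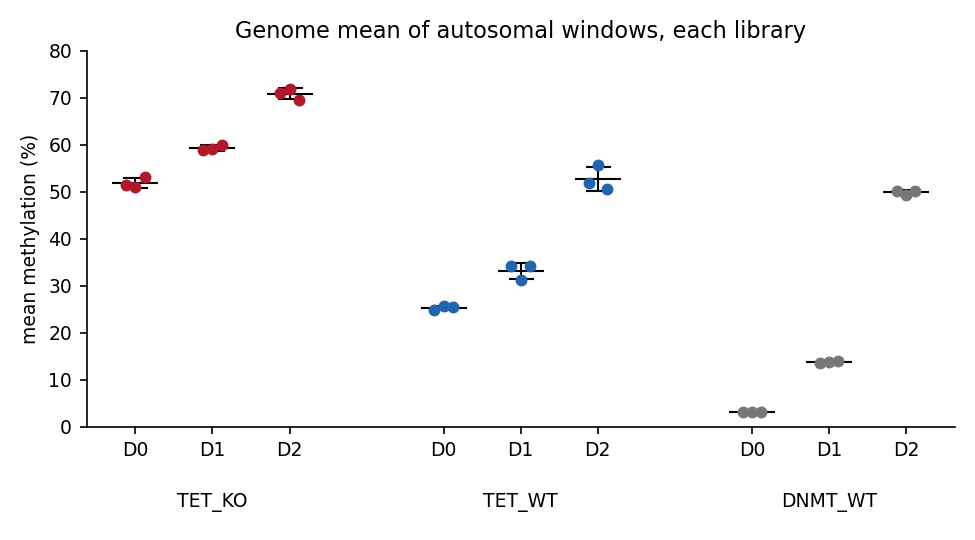
Mean methylation (%) of autosomal windows in each library (points) by line and day, with the mean and SD of the 3 libraries (black). TET_KO libraries reached 69.6 to 71.9% on D2 and 59.0 to 60.04% on D1, above TET_WT and DNMT_WT on the same days.

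Windows in the middle range were fewer on D2 and highly methylated windows more frequent. Windows at 80% or more made up 37.8% of all windows on D2 (32.04 to 42.3% over the 3 libraries), against 4.75% on D1 (3.89 to 6.12%). Windows between 20 and 60% made up 10.2% on D2 (9.18 to 11.6%), against 32.8% on D1 (31.2 to 33.6%). Windows under 10% made up 4.25% on D2 (4.21 to 4.28%) and 4.78% on D1 (4.76 to 4.79%). Windows at 90% or more reached 1.998% on D2, against 0.0808% on D1. The whole distribution slid upwards while the small peak near 0 stayed, as the plot of window levels shows.

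**Figure D2:**
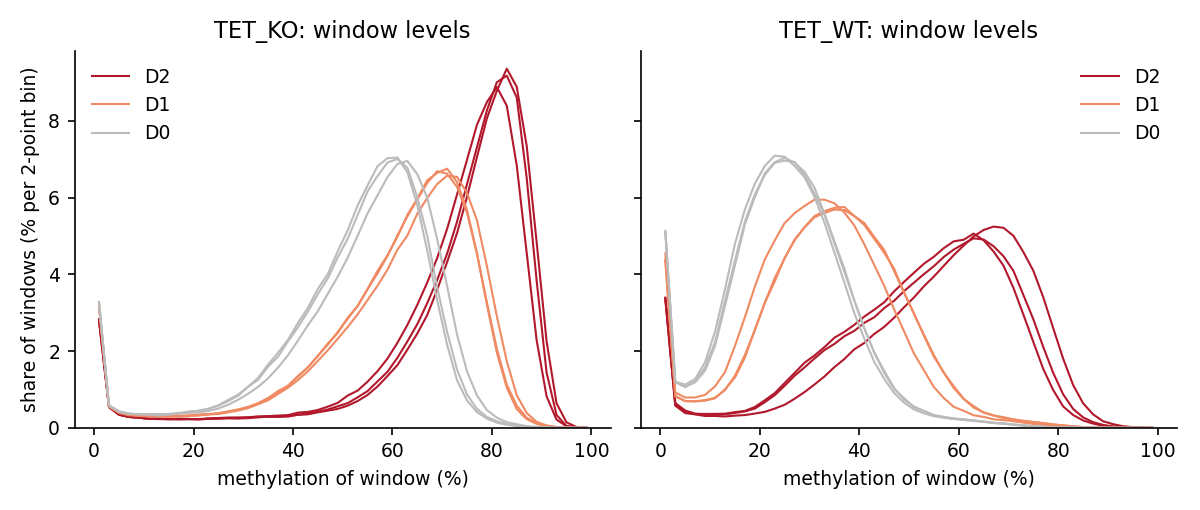
Share of windows (% per 2-point bin) by methylation level, 1 line for each library, for TET_KO (left) and TET_WT (right). The TET_KO D2 libraries peak above 80%, to the right of D1 and D0, while the peak of unmethylated windows near 0 is present on all days.

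Single windows were tested with limma over all 27 libraries. The ± of a single window or gene is the SE of that fit, from a spread shared by all 9 groups. It can be smaller than the scatter of the TET_KO libraries alone would give. The ± of a genome or class step comes from the libraries of its own groups. A window was called when its Benjamini-Hochberg adjusted p was under 0.05 and its difference at least 10 percentage points. By that rule 276547 of the 422141 windows were higher on D2, a share of 65.5%, and 14 were lower, a share of 0.00332%. At any size of difference 394125 were higher and 170 lower. In 391122 windows (92.7%) every D2 library was above every D1 library, and in 352 every D2 library was below. The step of a window had a median of 11.6 points and a 5th to 95th percentile range of 2.72 to 18.7 points. Relative to each library's own median, which was 12.7 points higher on D2 than on D1, 3129 windows gained more and 20763 gained less. Neighbouring windows moved alike, with a correlation of 0.444 between the steps of windows next to each other in the table, given as a description since neighbours share their libraries.

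How much a window gained went with its level and its CpG density. Windows that stood at 30 to 40% on D0 gained most, with 57.3% ± 1.48 on D2 and 41.9% ± 0.347 on D1, a step of 15.4 ± 0.879 points. Windows under 10% on D0 gained 1.53 ± 0.0898 points and those at 80 to 90% gained 4.08 ± 0.510 points. Binning by the D0 level of the parent line TET_WT put the peak at 10 to 20%, with 14.7 points. By length, the step was 0.680 points in windows under 1 kb, 8.66 points at 1 to 3 kb, 11.1 points at 3 to 5 kb, 14.9 points at 8 to 16 kb and 15.97 points over 16 kb. Windows outside gene bodies gained 12.4 ± 0.791 points (72.5% called higher), and those inside gained 10.7 ± 0.737 points (59.1% called higher). The 19 autosomes were close to each other, with steps of 11.1 points on chromosome 19 to 11.9 points on chromosome 16.

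Set against the parent line, TET_KO gained fewer points on the second day. TET_KO rose by 11.5 ± 0.761 points, and TET_WT by 19.5 ± 1.78 points, to 52.7% ± 2.58 on D2 against 33.2% ± 1.70 on D1. The difference of the steps was -7.97 ± 1.94 points (permutation of the line labels within days, 400 arrangements, two-sided p = 0.005, the smallest they can give; adjusted over 2 lines, 0.005). TET_WT replicate 2 stood somewhat apart, with 55.6% on D2 against 51.8 and 50.7% in the others, and 31.3% on D1 against 34.2 and 34.2%; without it on D2 the difference was -6.51 points. As a share of the CpGs still unmethylated, TET_KO and TET_WT lost 28.3% and 29.2%. On the log2 scale of the unmethylated percent the steps differed by 0.02 ± 0.06 (permutation p = 0.785). DNMT_WT lost 41.9% and rose by 36.2 ± 0.292 points; the step of TET_KO differed from it by -24.7 ± 0.815 points (permutation p = 0.005) and by 0.30 ± 0.04 on the log2 unmethylated scale (permutation p = 0.005; adjusted, 0.01).

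Along window length the shares of the lines crossed. In windows of 1 to 3 kb the share of unmethylated CpGs lost was 18.6% in TET_KO, 25.7% in TET_WT and 38.2% in DNMT_WT. At 3 to 5 kb it was 32.6% in TET_KO, 37.0% in TET_WT and 50.4% in DNMT_WT, and at 5 to 8 kb 34.5% in TET_KO, 32.8% in TET_WT and 45.9% in DNMT_WT. In the CpG-poor windows of 8 to 16 kb it was 33.5% in TET_KO, 22.3% in TET_WT and 33.8% in DNMT_WT, and over 16 kb 30.6% in TET_KO, 17.6% in TET_WT and 27.9% in DNMT_WT. Against TET_WT the share was lower in TET_KO at 1 to 3 kb and higher at 8 to 16 kb and over 16 kb (permutation p = 0.02 for each, adjusted over 6 classes), under 1 kb it was 0.704% in TET_KO and 0.928% in TET_WT (adjusted permutation p = 0.0225), and the tests at 3 to 5 kb and 5 to 8 kb gave 0.246 and 0.655. Single D2 libraries of TET_KO lost 33.9, 36.5 and 30.1% at 8 to 16 kb, above the 20.3, 27.4 and 19.3% of TET_WT, and 33.4, 35.6 and 28.9% at 3 to 5 kb, beside 35.9, 41.5 and 33.6% in TET_WT. In points, TET_KO gained less than TET_WT at 1 to 3, 3 to 5 and 5 to 8 kb, by -9.36, -11.9 and -8.49 points (adjusted permutation p = 0.01 for each), while the differences at 8 to 16 kb and over 16 kb, the last of 2.55 points, did not pass (adjusted permutation p = 0.67 and 0.294). Against DNMT_WT the share lost in TET_KO was lower in the 4 classes up to 8 kb (adjusted permutation p = 0.0075 for each) and did not pass in the 2 longer ones (0.885 and 0.156).

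**Figure D3:**
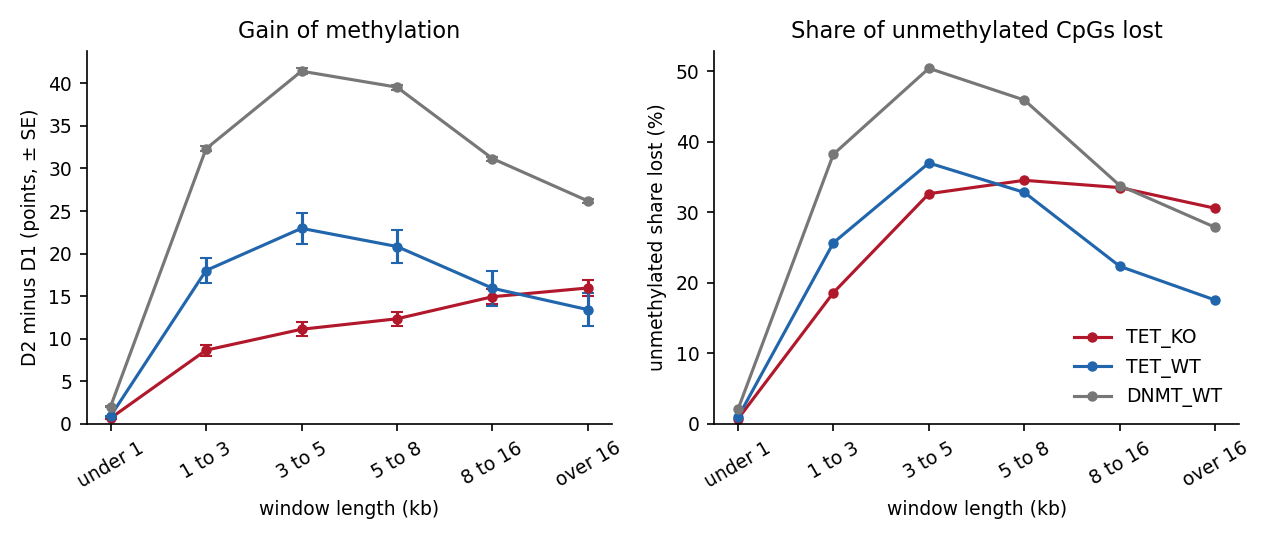
Gain of methylation from D1 to D2 (left, points, with SE over libraries) and share of the unmethylated CpGs lost (right, %, from group means) by window length for TET_KO, TET_WT and DNMT_WT. In TET_KO the share lost stays between 30.6 and 34.5% from 3 kb upwards, while in TET_WT it is 37.0% at 3 to 5 kb and 17.6% over 16 kb.

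Window by window, 5514 gained at least 10 points more in TET_KO than in TET_WT (1.31% of windows) and 187512 gained at least 10 points less (44.4%). Without TET_WT replicate 2 on D2 these counts were 11125 and 154586, and on the logit scale 507 and 88104. With each library centred on its own median the split turned round, with 67070 higher and 14587 lower, since centring takes out 9.92 points, by which the median rose less in TET_KO. Windows that gained more in TET_KO had a median length of 11274 bp, and 24.6% lay in gene bodies, against 4385 bp and 61.4% for those that gained less. Their median levels were 60.1% on D2 and 39.8% on D1 in TET_KO, beside 26.9% and 18.6% in TET_WT. Windows that gained less had medians of 82.0% on D2 and 71.2% on D1 in TET_KO, beside 65.6% and 39.9% in TET_WT. Against DNMT_WT, 20 windows gained more (0.00474%) and 360889 less (85.5%), or 111787 and 35980 after centring. The count of 20 was 31 without DNMT_WT replicate 2 on D1 and 41 without TET_KO replicate 3 on D2.

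The largest positive difference from TET_WT among called windows lay in Erbb4, which encodes a receptor tyrosine kinase (chr1:68608816-68611790). The window stood at 75.3, 76.5 and 72.4% on D2, against 57.9, 69.0 and 42.3% on D1, and its step exceeded that of TET_WT by 30.5 ± 6.80 points (adjusted p = 4.7e-04). Its D1 libraries were far apart, its D2 libraries close together, and the days did not overlap. A window over the vomeronasal receptor gene Vmn1r152 (chr7:22511513-22525629) held 50.01, 46.3 and 48.8% on D2, against 21.9, 21.3 and 23.6% on D1, with tighter replicates and a difference of 24.99 ± 4.50 points (adjusted p = 5.9e-05). On the other side, the fourth largest of the negative differences was a window in Auh, a mitochondrial hydratase gene (chr13:52904304-52906843). It stood at 86.0, 89.2 and 83.5% on D2, against 79.5, 84.1 and 79.6% on D1 in TET_KO, and its step differed from that of TET_WT by -40.1 ± 3.94 points (adjusted p = 1.9e-07).

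The second day differed from the first within TET_KO. The gain on the second day exceeded that on the first by at least 10 points in 40977 windows (9.71%) and fell short of it by that much in 200 (0.0474%), or in 11024 and 2642 after centring, which removes median gains of 12.7 and 8.45 points. On the logit scale the counts were 411 and 1. Without TET_KO replicate 2 on D1 the counts were 21834 and 97, without replicate 1 on D1 23051 were higher, and the number of windows that gained less was 114 without replicate 3 on D1 and 314 without replicate 3 on D0. Of genes, 1226 of 20361 gained more on the second day (6.02%) and 0 less. By limma 4 genes were lower at an adjusted p under 0.05 and any size, 18 at an unadjusted p under 0.05, and 0 and 7 on the logit scale. The largest second-minus-first-day contrast among windows lay in Jdp2, which encodes a bZIP repressor, at 46.6 points.

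The largest rises of the second day were in windows that were low on D1 and stood near 50% or above on D2. In Jdp2 (chr12:85619233-85622632) methylation was 70.3, 73.5 and 70.8% on D2, against 22.3, 17.99 and 21.7% on D1, a step of 50.9 ± 1.98 points (adjusted p = 1.6e-16). In Sap30bp, whose product binds the corepressor subunit SAP30 (chr11:115944289-115947595), it was 64.5, 68.5 and 57.1% on D2, against 16.2, 14.1 and 18.8% on D1, a step of 47.1 ± 2.40 points (adjusted p = 1.8e-14). A window 9996 bp from Erich1 (chr8:14012651-14015886) went up by 44.6 ± 2.24 points (adjusted p = 1.3e-14), with 49.6, 58.6 and 45.8% on D2, against 5.53, 5.03 and 9.64% on D1. The largest rises were picked among called windows whose days did not overlap, so the gap between days in these 3 windows follows from that choice. The D0 means of these windows were 16.4, 14.1 and 3.37%. Further windows among the 10 largest lay in Esrrb (2 windows), Dym, Slc29a3 and Sh3pxd2a and near Cdkn1a and Arih2, with steps of 42.3 to 44.2 points. Of these 10, 9 gained within 10 points of what TET_WT gained, and the exception was an Esrrb window at 11.9 ± 3.54 points more (adjusted p = 0.0050). A window 52329 bp from Klf4, a naive pluripotency factor gene, was picked out after its values were seen (chr4:55470976-55474808); it held 52.8, 50.9 and 48.9% on D2, against 10.6, 10.5 and 11.2% on D1, and its step was 14.7 ± 2.51 points (adjusted p = 3.4e-05) above that of TET_WT.

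In 48 windows every D1 library was under 25% and every D2 library at 50% or more. Their median length was 3705 bp, and 33 lay in gene bodies, beside 52.4% of all windows. For starts, 1 per gene was kept, that in the shortest window, and other annotated starts were not counted. Such a kept start was held by 0 of the 48 windows, beside 3.63% of all windows, a share at which 48 windows would hold few. In TET_WT their median level was 42.6% on D2 and 7.10% on D1. Windows under 20% on D0 split by density. Those of at least 2 kb, 5914 in number, stood at 24.7% ± 0.790 on D2 and 15.4% ± 0.228 on D1, a step of 9.29 ± 0.474 points. Those under 1 kb, 15351 in number, stood at 2.27% ± 0.0813 on D2 and 1.72% ± 0.00426 on D1. Windows under 10% in all 6 libraries numbered 17124, with a median length of 583 bp. Of these, 33.7% held a kept start, against 3.63% of all windows. Keeping the start in the shortest window favours short windows, so part of that contrast can follow from the choice. How large that part is was not tested.

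Strong rises were mostly of single windows, with a few long runs of neighbours. The 11523 windows that were called and rose by 20 points or more formed 9174 runs, of which 7518 held 1 window and 7 held at least 7 windows. The longest run, of 13 windows over 132 kb (chr8:29806820-29938910), lay outside genes, 587149 bp from Unc5d, and averaged 63.7, 65.0 and 60.9% on D2, against 40.9, 39.9 and 41.9% on D1. A run of 10 windows lay in Esrrb, which encodes an orphan nuclear receptor of the naive pluripotency network (chr12:86470320-86508061), at 52.1, 56.6 and 46.2% on D2, against 19.2, 18.97 and 19.03% on D1. Oca2, which encodes a melanosomal membrane protein, held 8 (chr7:56344509-56415912), at 73.5, 74.6 and 69.5% on D2, against 49.3, 49.99 and 51.3% on D1. Etv5, an ETS factor gene downstream of FGF signalling, held 7 (chr16:22392937-22414811), at 47.2, 49.8 and 45.6% on D2, against 20.8, 19.8 and 20.7% on D1. A further run of 7 windows lay 480694 bp from Unc5d. D2 and D1 libraries did not overlap in any of the averages given here, which the choice of called windows with rises of 20 points or more made likely.

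The runs differed in their level and in how they compared with TET_WT. In Esrrb and Etv5 the windows were low on D0, at 15.2 and 17.4% in TET_KO, with D1 means of 19.06 and 20.5%. TET_WT had 34.2% on D2 against 4.03% on D1 in the Esrrb run and 30.5% against 6.91% in the Etv5 run. Within the Esrrb run 3 windows gained at least 10 points more than in TET_WT and 1 at least 10 points less. The 13-window run nearest to Unc5d stood at 34.3% on D0, and gained more than in TET_WT in 7 of its 13 windows, where TET_WT averaged 31.0% on D2 and 19.12% on D1. The window with the kept start of Esrrb lay outside the run and was not called, with 17.1, 18.6 and 16.96% on D2, against 16.3, 16.2 and 14.2% on D1.

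**Figure D4:**
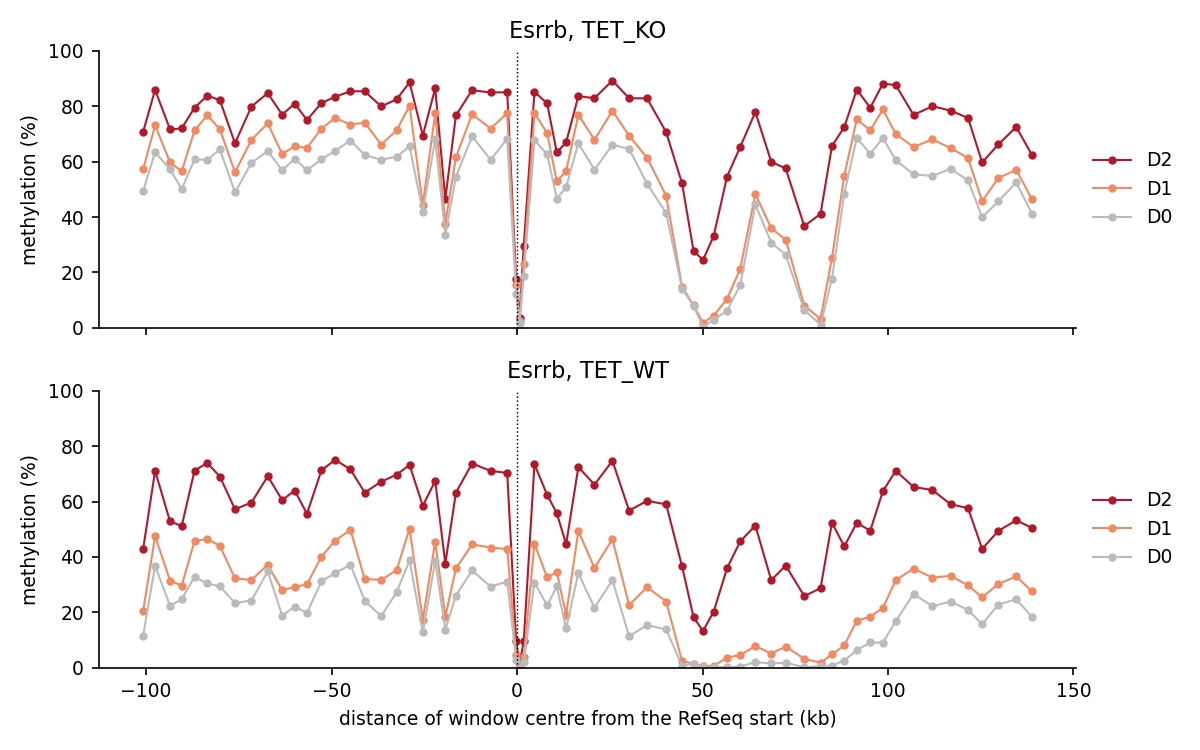
Mean methylation (%) of windows across Esrrb and 40 kb on either side, by distance from a RefSeq start (dotted line, kb), on D2, D1 and D0 for TET_KO (top) and TET_WT (bottom). The run of 10 windows downstream of the start averages 51.6% on D2 and 19.06% on D1 in TET_KO, and 34.2% and 4.03% in TET_WT.

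Falls were few and lay mostly in short windows. Of the 14 windows called lower, 11 were under 1500 bp, where the 5th percentile of all window lengths was 1394 bp. In 8 the D2 libraries were all below the D1 libraries. In 12 the D1 mean was more than 5 points above that of D0, beside a mean rise of 7.51 points over all windows on that day. Picking falls from D1 to D2 also favours windows with a high D1 mean. A window in Gpc6, which encodes a glypican (chr14:117546935-117547860), fell to 74.2, 66.0 and 61.4% on D2, against 77.8, 88.8 and 82.3% on D1. A window in Lrmda (chr14:22835431-22836241) stood at 26.6, 34.1 and 25.9% on D2, against 39.7, 38.9 and 48.02% on D1, with 21.04% on D0. The largest fall, -20.5 ± 5.11 points (adjusted p = 5.3e-04), lay 1620402 bp from the nearest gene and rested on D1 libraries as far apart as 53.6 and 21.1%. A 658 bp window in Mest, an imprinted gene, stood at 29.6% on D2 and 41.8% on D1, with overlapping libraries. Such windows numbered 27, 17 and 23 without D1 replicate 1, 2 or 3 in turn, and 27, 24 and 26 without D2 replicate 1, 2 or 3.

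Transcription starts showed the same dependence on CpG density, here counted in the promoter itself. RefSeq promoters of GRCm38.p6, 250 bases before to 50 after each start, placed 15962 genes in 15336 windows. Of these start windows 5026 were called higher (31.5%) and 1, that of Mcub, lower (0.00626%). Against TET_WT 157 start windows gained at least 10 points more (0.984%) and 2167 less (13.6%), or 447 and 1215 after centring. Promoters with 0 to 2 CpGs, 2853 in all, stood in windows at 68.2% ± 1.33 on D2 and 53.8% ± 0.421 on D1, and 86.7% were called higher. Those with 5 to 8 CpGs stood at 59.1% ± 0.947 and 49.0% ± 0.527 (53.7% called), and those with 13 to 18 at 19.9% ± 0.477 and 15.8% ± 0.165 (8.56% called). Promoters with 19 or more CpGs, 6590 in all, stood at 6.75% ± 0.168 on D2 and 5.26% ± 0.0314 on D1, and 81 of them (1.23%) were called. Windows are longer where CpGs are sparse, with a median of 9029 bp for 0 to 2 CpGs and 644 bp for 19 or more, so a value speaks of the window and not of the promoter alone.

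Genes of pluripotency stood at both ends of this range. Of 19 start windows of the naive list 4 were called higher, beside the 31.5% of all start windows, the median step was 0.231 points beside 4.82 points, and 12 were under 10% on D2. The promoters of Tcl1, Nanog, Spic and Nr5a2, naive pluripotency genes whose start windows were called higher, are printed with those of Klf4 and Tet2, whose CpG-dense starts were not, to set CpG content beside the measured change. The sequences are from RefSeq, each 300 bases, 5′ to 3′ on the gene's strand, with CG dinucleotides in capitals.
Tcl1, chr12:105222688-105222987, minus strand: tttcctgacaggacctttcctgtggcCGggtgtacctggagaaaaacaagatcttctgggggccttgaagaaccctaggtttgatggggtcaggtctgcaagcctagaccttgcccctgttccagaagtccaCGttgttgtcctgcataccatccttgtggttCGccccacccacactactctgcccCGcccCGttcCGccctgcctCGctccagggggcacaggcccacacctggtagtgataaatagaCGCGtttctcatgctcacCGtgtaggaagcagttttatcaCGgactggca
Nanog, chr6:122707239-122707538, plus strand: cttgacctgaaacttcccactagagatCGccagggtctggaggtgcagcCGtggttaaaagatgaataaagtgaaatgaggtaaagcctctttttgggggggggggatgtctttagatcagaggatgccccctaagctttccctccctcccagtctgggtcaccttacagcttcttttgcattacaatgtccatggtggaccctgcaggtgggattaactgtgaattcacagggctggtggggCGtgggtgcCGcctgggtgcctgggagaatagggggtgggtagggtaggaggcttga
Spic, chr10:88682974-88683273, minus strand: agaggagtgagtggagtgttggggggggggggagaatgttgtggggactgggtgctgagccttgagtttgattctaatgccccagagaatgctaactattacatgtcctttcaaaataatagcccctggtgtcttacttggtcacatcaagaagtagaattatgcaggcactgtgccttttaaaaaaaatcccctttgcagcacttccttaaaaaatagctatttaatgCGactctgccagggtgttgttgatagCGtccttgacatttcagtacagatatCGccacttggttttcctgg
Nr5a2, chr1:136953581-136953880, minus strand: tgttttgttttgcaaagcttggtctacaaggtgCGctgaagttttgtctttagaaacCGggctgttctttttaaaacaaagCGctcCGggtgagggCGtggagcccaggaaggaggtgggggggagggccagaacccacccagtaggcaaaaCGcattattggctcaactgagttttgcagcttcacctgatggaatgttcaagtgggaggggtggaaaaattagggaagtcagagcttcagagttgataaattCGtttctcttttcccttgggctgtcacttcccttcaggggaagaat
Klf4, chr4:55532426-55532725, minus strand: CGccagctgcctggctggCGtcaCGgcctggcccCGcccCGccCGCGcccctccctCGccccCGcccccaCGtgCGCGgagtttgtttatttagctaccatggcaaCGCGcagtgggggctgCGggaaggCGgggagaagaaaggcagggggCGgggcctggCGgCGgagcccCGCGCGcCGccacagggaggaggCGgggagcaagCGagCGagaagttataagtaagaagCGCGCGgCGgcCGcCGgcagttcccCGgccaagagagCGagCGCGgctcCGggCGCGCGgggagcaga
Tet2, chr3:133544341-133544640, minus strand: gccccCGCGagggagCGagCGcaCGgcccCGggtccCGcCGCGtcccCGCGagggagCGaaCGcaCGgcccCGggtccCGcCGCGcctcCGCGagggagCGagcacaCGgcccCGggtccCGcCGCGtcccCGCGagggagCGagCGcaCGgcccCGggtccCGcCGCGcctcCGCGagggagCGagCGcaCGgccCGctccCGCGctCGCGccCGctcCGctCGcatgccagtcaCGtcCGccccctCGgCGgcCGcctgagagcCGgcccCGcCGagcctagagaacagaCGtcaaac
These promoters hold 11, 4, 3, 7, 40 and 57 CpGs, in the order shown.

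At Tcl1, which encodes a co-activator of AKT kinase, the 1594 bp start window held 27.8, 34.1 and 34.7% on D2, against 4.59, 6.81 and 6.55% on D1, a step of 26.2 ± 1.37 points (adjusted p = 7.2e-12). At Nanog, which encodes a homeodomain factor of naive pluripotency, the 2859 bp start window held 23.0, 23.0 and 21.8% on D2, against 1.94, 3.76 and 3.05% on D1, a step of 19.7 ± 0.589 points (adjusted p = 9.9e-17). Neither pair of days overlapped, and both windows were under 7% in every D1 library. The Nanog window gained 14.9 ± 0.833 points (adjusted p = 1.0e-10) more than in TET_WT, which had 5.23% on D2 and 0.386% on D1, while for Tcl1 the difference was 0.942 ± 1.94 points (adjusted p = 0.8). Spic, an ETS factor gene, stood at 71.9, 73.3 and 67.1% on D2, against 49.7, 46.5 and 48.1% on D1 in its start window, and its step differed from that of TET_WT by -15.1 ± 3.02 points (adjusted p = 0.0010). At Nr5a2, an orphan nuclear receptor gene, the step was 13.3 ± 1.63 points (adjusted p = 3.1e-07). The starts of Klf4 and Tet2 were under 2% in all 6 libraries, with 0.333, 1.67 and 0.274% on D2 and 0.792, 1.23 and 0.765% on D1 for Klf4, and values of 0 to 0.383% for Tet2. Tet1 gained 11.3 ± 1.07 points (adjusted p = 9.1e-09) at its start, with 17.8, 22.03 and 18.5% on D2, against 8.39, 6.88 and 9.17% on D1. Of 27 start windows of the methylation machinery list 1 was called higher, that of Tet1, beside 31.5% of all start windows. The median step of the 27 was 0.614 points, and 18 were under 10% on D2.

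Of the 9618 starts whose promoter holds 10 or more CpGs, 451 were called higher, a smaller share than the 5026 of all 15962 start windows (31.5%). The largest was 2410137M14Rik, with 47.98, 41.6 and 41.4% on D2, against 15.2, 12.4 and 14.8% on D1, followed by Tcl1 and Ly6g6d. In Calhm2, a channel gene, the start window held 35.4, 40.2 and 36.4% on D2, against 15.2, 16.1 and 14.6% on D1, and in Tnf, which encodes an inflammatory cytokine, 65.1, 64.3 and 64.7% on D2, against 47.8, 48.5 and 42.4% on D1. Days did not overlap at any of the 10 largest, and in 92.7% of all windows every D2 library was above every D1 library. Of 41 start windows of the blood and endothelial list 13 were called higher, and 21 were under 10% on D2. Their median step was 1.35 points, beside 4.82 points for all start windows. The list holds Erg, an ETS factor gene whose promoter has 16 CpGs. The start window of Erg stood at 61.3, 58.8 and 62.1% on D2, against 44.0, 43.5 and 41.7% on D1. Of 21 start windows of the primitive endoderm and trophoblast list 6 were called higher, with a median step of 4.12 points. The start window of Sparc, a matrix protein gene of that list, held 54.7, 61.3 and 54.3% on D2, against 32.4, 37.3 and 37.3% on D1. Sparc does not stand for the list. Over gene bodies, steps were 14.2 points for Sparc and 13.3 for Lamc1, beside 6.87 for Gata6, 6.51 for Pdgfra and 7.29 for Sox7.

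Over gene bodies, 10463 of 20361 genes were higher on D2 by at least 10 points (51.4%) and 0 were lower (0%). By limma 20256 were higher and 0 lower at any size, 0 were lower at an unadjusted p under 0.05, 1 was lower at any size on the logit scale, and 88 were higher and 107 lower after centring. A gene's value is the mean of the windows that overlap it, and the median step over all genes was 10.1 points. The lists below differed in how many of their members passed, read against that share of 51.4%. Centring each library on the median of its genes removes 11.5 points, so a list with a smaller median, like the 10.1 points of all genes, lies below 0 after centring. A list member is said to have risen where it was called, by at least 10 points. Neighbouring genes can share windows.

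Naive pluripotency genes included the largest steps of the pluripotency lists. In that list 17 of 32 rose, with a median of 10.96 points, a share close to that of all genes. Nanog stood at 49.8, 52.3 and 49.1% on D2, against 29.1, 28.1 and 29.6% on D1, a step of 21.4 ± 1.03 points (adjusted p = 6.1e-14). Tdh, which encodes threonine dehydrogenase, stood at 52.3, 53.7 and 52.0% on D2, against 31.5, 32.3 and 32.7% on D1, a step of 20.5 ± 1.07 points (adjusted p = 1.4e-13). Tcl1 rose by 18.7 points and Esrrb by 16.8 points, and in all 4 genes the days did not overlap, as in 20209 of the 20361 genes. Sox2, a core pluripotency factor, stood at 0.530, 0.589 and 0.665% on D2, against 0.525, 0.596 and 0.251% on D1, and Gbx2 at 9.36, 9.32 and 8.20% on D2, against 5.10, 4.602 and 5.58% on D1. Against TET_WT, 0 genes of the list gained at least 10 points more and 14 less, beside 0.756% and 39.5% of all genes, or 1389 genes more and 93 less after centring. Nr5a2 was one, with a difference of -16.01 ± 1.44 points (adjusted p = 2.1e-08). On the second day 5 of the 32 gained at least 10 points more than on the first, beside 6.02% of all genes, Nanog by 17.2 and Tdh by 15.6 points.

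Genes of the formative and primed epiblast had 6 of 33 members called and a median of 8.596 points. Etv5 led with 55.2, 56.6 and 52.4% on D2, against 38.5, 38.3 and 38.9% on D1, a step of 16.2 ± 1.18 points (adjusted p = 9.8e-12). Cdh1, which encodes E-cadherin, rose by 12.6 points, Spry4, an inhibitor of FGF signalling, by 10.9 points and the ligand gene Wnt8a by 10.5 points. The shorter of the windows at the gene ends differed by -0.0833, -0.441 and -0.230 points for Etv5, Cdh1 and Spry4, and Spry4 and Wnt8a stood at -0.626 and -0.992 points after centring. Utf1 and Foxd3, both transcription factor genes, had steps of 0.261 and 0.373 points, with 0.436, 0.676 and 0.873% on D2, against 0.499, 0.505 and 0.197% on D1 for Utf1. Of FGF, Nodal and Wnt signalling genes 8 of 36 rose (median 9.11 points), among them Tcf7l1, a repressor of Wnt targets, by 14.9 points, Smad7, an inhibitor of TGF-beta signalling, by 13.1 points (-0.0291 points in the shorter window at the gene ends) and the activin receptor gene Acvr1b by 12.3 points. Sp5 and Fzd7 had steps of 1.37 and 2.25 points.

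Germline genes, many of which carry methylated promoters in somatic cells, had 29 of 51 members that rose, with a median of 10.6 points. Sycp2, a component of the synaptonemal complex, stood at 49.3, 52.6 and 49.4% on D2, against 32.9, 32.6 and 32.2% on D1, a step of 17.9 ± 1.000 points (adjusted p = 3.2e-13). Asz1, which acts in the piRNA pathway, rose by 13.7 points, the oocyte gene Nlrp4c by 13.7 and the tudor-domain gene Tdrkh by 13.6 points. Dazl, an RNA-binding protein of germ cells, stood at 44.5, 43.9 and 46.1% on D2, against 35.4, 38.4 and 39.8% on D1, under the 10-point minimum. Of imprinted genes 18 of 50 rose (median 9.24 points). Slc22a2 and Slc22a3, cation transporter genes of the Igf2r cluster, rose by 15.1 and 14.2 points, and Snrpn by 14.4 points. H19, a non-coding RNA, stood at 66.8, 68.0 and 71.6% on D2, against 59.4, 52.7 and 53.3% on D1. Dio3 and Cdkn1c had the smallest steps, with 13.9, 14.4 and 10.8% on D2, against 11.7, 13.2 and 9.93% on D1 for Dio3.

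Among lineage genes, blood and endothelial regulators had 27 of 54 members that rose, close to the share of all genes, with a median of 9.95 points. The embryonic globin gene Hbb-y, which lies in 1 long window, stood at 64.4, 64.9 and 63.5% on D2, against 47.9, 46.0 and 45.4% on D1, a step of 17.8 ± 1.71 points (adjusted p = 4.4e-10), and its neighbour Hbb-bh1 rose by 16.9 points. Ptprc, which encodes the leukocyte protein CD45, rose by 14.9 points, while Cebpb stood at 10.97, 10.7 and 10.9% on D2, against 9.09, 9.11 and 9.73% on D1. Etv6, an ETS repressor gene, and Eng, a TGF-beta co-receptor gene, had steps that differed from those of TET_WT by -17.7 ± 1.57 points (adjusted p = 1.9e-08) and -16.9 ± 1.40 points (adjusted p = 1.3e-08). Of neuroectoderm genes 1 of 31 reached the 10-point minimum, which was Map2, a microtubule protein gene, at 11.5 points (-0.0193 points after centring), and the list median was 3.86 points; by limma all 31 were higher at an adjusted p under 0.05 and any size. Sox1, an early neural factor, stood at 5.62, 6.05 and 5.80% on D2, against 4.38, 4.72 and 5.35% on D1. Of Hox genes 0 of 39 reached the minimum, with a median of 4.38 points; by limma 38 were higher at an adjusted p under 0.05 and any size.

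Mesoderm and endoderm genes had 10 of 36 members that rose and a median of 6.40 points. The liver and gut factor gene Hnf4a rose by 14.3 points, the mesoderm factor Msgn1 by 12.4 and the alpha-fetoprotein gene Afp by 11.5 points (-0.0621 points after centring). Foxc1 stood at 7.03, 7.04 and 6.86% on D2, against 6.47, 6.77 and 5.62% on D1. Primitive endoderm and trophoblast genes had 15 of 29 members that rose (median 10.3 points). The placental genes Prl2c2 and Ctsq led, with 56.8, 55.5 and 52.2% on D2, against 35.5, 36.9 and 36.4% on D1 for Prl2c2 and 58.8, 61.7 and 58.8% on D2, against 39.0, 40.8 and 44.5% on D1 for Ctsq. Both have near copies in the genome, so reads may be shared among them. Ascl2 and Bmp4 had steps of 1.52 and 2.55 points.

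Genes of the methylation machinery had 11 of 33 members that rose (median 9.40 points). Zfp57, which protects imprints, stood at 33.9, 35.9 and 32.9% on D2, against 19.3, 20.1 and 18.96% on D1, a step of 14.8 ± 0.915 points (adjusted p = 1.0e-12), and Tet2 rose by 13.8 points over its body, unlike at its start. Dnmt1, the maintenance enzyme, and its partner Uhrf1 had steps of 9.63 and 8.28 points, which differed from those of TET_WT by -15.04 ± 1.91 points (adjusted p = 1.8e-07) and -14.1 ± 1.54 points (adjusted p = 4.4e-08); with the shorter window at the gene ends the difference for Uhrf1 was 0.454 points. Ubiquitously expressed genes had 5 of 32 members that rose (median 8.13 points), with Rab7, a GTPase gene, at 13.4 points and Rpl13a, a ribosomal protein gene, at 2.64 points. Of 2-cell-like genes 21 of 26 rose (median 12.5 points); many have near copies, so their reads may be misplaced. Clustered protocadherins had 11 of 58 members that rose (median 8.06 points), led by Pcdhb6 at 45.2, 45.7 and 38.9% on D2, against 29.3, 30.8 and 32.3% on D1.

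**Figure D5:**
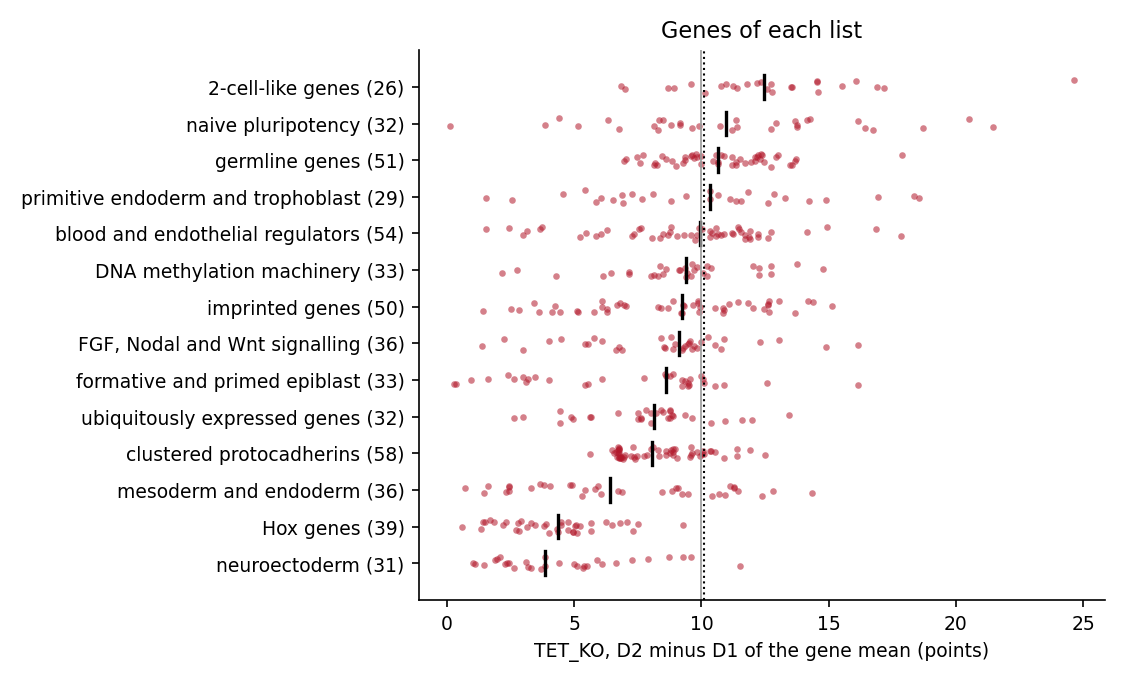
Step from D1 to D2 in TET_KO (points, gene mean) for every measured gene of each list, 1 point a gene, with the list median (black bar), the median of all genes (dotted, 10.1 points) and the 10-point minimum (grey). Hox and neuroectoderm genes lie below 10 points except Map2, and the naive list runs from 0.137 to 21.4 points.

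Among gene families grouped by symbol, the chemoreceptor families had the highest shares of called members. Of olfactory receptor genes 1040 of 1099 rose, with median levels of 68.1% on D2 and 51.5% on D1 and a median step of 16.03 points, beside 14.2 points in TET_WT. Against TET_WT, 85 gained at least 10 points more and 76 less, beside 0.756% and 39.5% of all genes. Of vomeronasal receptor genes 280 of 302 rose, with a median step of 15.2 points, beside 11.99 points in TET_WT, and 23 gained at least 10 points more and 14 less. Defensin genes rose in 52 of 60, keratin and keratin-associated genes in 92 of 109 and cytochrome P450 genes in 82 of 99. Zinc finger genes named Zfp rose in 136 of 383, with a median of 9.23 points, and ribosomal protein genes in 16 of 91, with 6.75 points. Relative to the 11.5 points that centring removes, the medians of the receptor families lie above 0 and those of Zfp and ribosomal protein genes below. Members of a family share windows and near-identical sequence, so these counts are not of independent loci.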

How the data were processed

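Bisulfite libraries of 3 lines on 3 days, 27 in all, were compared, of which 6 are TET_KO on D2 and D1. The authors deposited percent methylation of CpGs for each library and window, with windows named as 100 CpGs; per the submitters' processing notes, Trim Galore 0.6.6, cutadapt 2.3 and Bismark 0.23.0 were used with GRCm38. How windows were filled, and any minimum coverage, is not given in the sources used here. The deposited percent values hold no read counts, so no counting interval can be given. Per the labels' protocols, DNA was sheared, ligated to methylated adapters, bisulfite converted and amplified, so amplification duplicates and incomplete conversion could shift values.

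Autosomal windows with a value in every library were analysed unscaled. Window and gene values, a gene's being the mean of the windows over its body, were fitted with limma 3.58.1 (R 4.3.3; lmFit, eBayes with trend) as a means model of 9 groups, with 18 residual degrees of freedom and Benjamini-Hochberg adjustment over all windows or genes. All adjusted p-values and SEs of single windows and genes are from that fit. A feature was called at an adjusted p under 0.05 and at least 10 percentage points, and the same rule was put to differences between lines and between days. Whole-library values were compared with exact permutation tests. Python 3.11.15 with scipy 1.17.1, pandas 2.3.3, numpy 2.4.6 and, for plots, matplotlib 3.10.9 served for the rest. The fit was tested on simulated windows with independent normal noise and, within a window, the same SD in all groups. Correlation between neighbouring windows and library-wide shifts were not simulated, so that test does not cover them. Gene names, starts and promoters are from RefSeq (GRCm38.p6). Where a gene has several starts, the 1 in the shortest window was kept, and its window is the start window. The promoters used here lacked chromosome 18, so its genes have no start window. Start windows were added after the data were seen. Genes named in each list are the 4 called members with the largest step, the 2 with the smallest, and the 2 that differed most from TET_WT and from the first day; windows are the 10 largest rises and falls without overlap, the 5 largest in each direction of the other contrasts, and the longest runs. Spic, Klf4, Erg and Sparc were instead named for their start windows, outside the rule for genes. The members and lists were chosen with earlier results of these data known. Samples were grouped by the genotype and time in the labels. Replicate numbers were not taken to pair samples. Alternatives were centring on library medians, the logit scale, no trend, other minimum differences, only the groups compared, a replicate block, other gene values and leaving out each library. The values of some named genes and runs are not reported here.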

Additional observations from a re-analysis of the deposited data

Results flagged for a closer look

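The step from D1 to D2 differed between lines. The genome mean rose by 7.97 points less in TET_KO than in TET_WT (a difference of -7.97 points) and the difference from DNMT_WT was -24.7 points, each with permutation p = 0.005, the smallest that 400 arrangements can give. In windows, 5514 gained more and 187512 less in TET_KO than in TET_WT, and 20 gained more and 360889 less than in DNMT_WT, by limma at an adjusted p under 0.05 and 10 points.

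Of genes, 154 gained more and 8042 less than in TET_WT by the same rule. The 154 were 235 without TET_KO replicate 3 on D2, 329 without TET_WT replicate 2 on D2 and 102 without TET_WT replicate 3 on D2, and after centring the split turned to 1389 more and 93 less.

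The X chromosome, left out of the comparisons above, averaged 72.0% on D2 and 59.3% on D1 in TET_KO, a step of 12.6 points.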

How the results depend on the processing

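The genome step was 12.9 points when weighted by window length and 10.99 to 12.1 points with each library left out. Its difference from TET_WT stayed negative, at -8.98 to -6.51 points with a library left out. With the replicate block it was -7.97 points with exact permutation p = 0.1, the smallest that design allows, and on the log2 unmethylated scale it was 0.0181 (permutation p = 0.785). Counts are given as higher and lower. Centring each library on its median gave 3129 and 20763 windows and 88 and 107 genes for the step, 67070 and 14587 windows and 1389 and 93 genes against TET_WT, 111787 and 35980 windows against DNMT_WT, and 11024 and 2642 windows for the second against the first day. The logit scale gave 507 and 88104 windows and 81 higher genes against TET_WT, 2 higher windows against DNMT_WT and 411 and 1 between days. With no minimum difference, 170 windows were lower and 20256 genes higher for the step, 18782 windows were higher against TET_WT and 769 against DNMT_WT, and 803 and 16333 genes differed from TET_WT. A minimum of 20 points left 11523 and 1 windows and 226 higher genes for the step. Against TET_WT it left 16 and 14347 windows and 1 and 35 genes, and between days 1832 and 35 windows. Against DNMT_WT it left 0 higher windows, where 807 were higher at an unadjusted p under 0.05 by limma with no minimum difference. The 6 TET_KO libraries alone, over windows complete in them, gave 33 lower windows. The shorter window at the gene ends gave 6711 and 1 for the step and 3779 lower against TET_WT, and the start window gave 5026 and 1, and 2167 lower. Binning by the TET_WT level on D0 gave class steps of 6.61 (0 to 10%), 14.7 (10 to 20%), 10.4 (30 to 40%), 8.64 (40 to 50%), 7.11 (50 to 60%), 6.16 (60 to 70%) and 4.89 points (70 to 80%).

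Leaving out 1 library at a time gave 255973 to 297228 windows higher and 17 to 27 lower for the step, 9055 to 12092 genes higher and 0 lower, 3963 to 11125 windows higher and 154586 to 209027 lower against TET_WT, 16 to 41 higher and 356747 to 363975 lower against DNMT_WT, 21834 to 50501 higher and 97 to 314 lower between days, and 102 to 329 genes higher and 5558 to 9831 lower against TET_WT.

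Deviations over windows of same-numbered D2 and D1 libraries of TET_KO correlated at -0.0102 to -5.5e-05. Libraries of different numbers gave -0.0108 to 0.0117. Such a correlation leaves out a shift shared by a whole library, so it cannot show whether the numbers are pairs. The numbers were not taken as pairs. The replicate block moved the count of windows that gained less on the second day to 128 and changed no other count by more than 1.5 times.

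Of the named genes that were called, centring turned the steps of Afp (-0.0621), Gusb (-0.590), Map2 (-0.0193), Pcdhb15 (-0.134), Pcdhb9 (-0.107), Spry4 (-0.626) and Wnt8a (-0.992 points). Centring removes 11.5 points from the step of every gene. Any smaller step then lies below 0, also in the named genes that were not called. The shorter window at the gene ends turned the steps of Cdh1 (-0.441), Etv5 (-0.0833), Smad7 (-0.0291) and Spry4 (-0.230 points), and the differences from TET_WT of Cdh2 (0.798), Gpi1 (0.498), Lef1 (2.42), Polr2a (0.209), Tcf7l2 (0.667), Tubb3 (0.191) and Uhrf1 (0.454 points). The cause of the turns at the gene ends was not tested. Other named values that lost their call were 62 under centring, 10 on the logit scale, 18 at the gene ends and 17 of the leave-one-out refits. The unknown depth and 3 libraries a group limit how small a difference can be seen.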

Other observations

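Outside the lists, the largest steps of single genes were in genes that lie in 1 window each. 2410137M14Rik stood at 47.98, 41.6 and 41.4% on D2, against 15.2, 12.4 and 14.8% on D1, and Spata25, a testis gene, at 68.8, 75.6 and 67.2% on D2, against 42.6, 43.0 and 38.5% on D1. Mup13, of the major urinary protein cluster, stood at 75.5, 77.0 and 77.5% on D2, against 52.3, 47.4 and 51.5% on D1. The days did not overlap in any of these 3 genes, as in 20209 of the 20361 genes. Mup13 has near-identical copies among which reads may be shared.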
